A study of Mus musculus with 47 samples.

Results

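The 8 genes Psap, Galc, Hexa, Asah1, Smpd1, Gla, Glb1 and Arsa encode proteins of the lysosome that take apart sphingolipids, among them the glycolipids of myelin. They were picked by gene name from 53697 genes in a table of RNA levels of cultured mouse microglia. All 8 were found, and all 8 were among the 10905 genes that passed the filter on low values and were tested.

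Primary microglia from the forebrain of C57BL/6 mice were cultured in medium with fetal bovine serum. Cultures received either no treatment or myelin, which is the lipid-rich sheath around axons, for 3 h, and RNA was collected at 24 h. Wild-type cells (WT, Jackson Laboratory) were compared with cells whose mouse Apoe alleles were both replaced by human APOE3 (E3) or APOE4 (E4), both from Taconic, and with cells with 1 disrupted Apoe allele (Het) or with none intact (KO), from another Jackson Laboratory line. The 47 libraries fell into 10 groups of 5 each, except for 4 E3 libraries with myelin, 4 without, and 4 Het libraries with myelin. The study asks how APOE4 microglia differ from APOE3 microglia at rest and after myelin. Each genotype other than the pair Het and KO came from its own line, so genotype and line cannot be told apart. No ages are given. Nothing in the labels states that the replicates are separate animals or cultures, and the p-values therefore rest on a spread between libraries that may be technical.

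Sphingolipids that a cell takes up or recycles are broken down in the lysosome 1 sugar or head group at a time, ending in ceramide, which is split into sphingosine and a fatty acid. Several of the hydrolases cannot reach a lipid in the membrane without a helper protein, and prosaposin, the product of Psap, is cut into 4 such helpers, the saposins. Myelin is rich in galactosylceramide and sulfatide, so microglia that engulf myelin debris depend on this pathway, and inherited loss of its enzymes causes storage diseases of the brain such as Krabbe disease, Tay-Sachs disease and metachromatic leukodystrophy.

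Levels are in TPM rescaled so that nuclear protein-coding genes sum to 1000000 in each library (scaled TPM). This was needed because the non-coding gene Gm23935 took 69.4% to 99.0% of the deposited TPM, which left coding genes with 0.468% to 27.3%. The coding share, by genotype, was 23.2 ± 2.54% for WT, 13.6 ± 2.33% for E3, 12.1 ± 3.24% for E4 and 20.8 ± 3.39% for KO without myelin (SD, n = 4 to 5). With myelin it was 19.2 ± 4.43%, 15.6 ± 6.04%, 18.6 ± 3.39% and 23.4 ± 1.59%. The share was under 6% in 4 of the Het libraries (replicates 3 and 5 without myelin, 1 and 2 with it). These were left out of the tests, which used 43 libraries. Apoe held 46678 to 82326 scaled TPM in WT libraries and 66.1 to 86.4 in KO libraries, as the labels say. It held 92.2 to 260 in E3 and 138 to 745 in E4. In Het it held 12909 to 59526, a range that overlaps that of WT. The 12 microglia markers summed to 5822 to 10686 scaled TPM per library in the 43 libraries, with no marker at 0, although P2ry12 (7.45 in untreated WT on average) and Sall1 (2.23) were low and Siglech did not pass the filter.

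In untreated WT microglia the 8 genes spanned a wide range of abundance, and TPM, being per length, allow the genes to be set side by side. Psap was the most abundant at 2501 ± 189 scaled TPM (SD, n = 5), followed by Hexa at 893 ± 51.4 and Asah1 at 337 ± 16.8. Hexa encodes the alpha subunit of hexosaminidase A, which removes N-acetylgalactosamine from GM2 ganglioside, and Asah1 encodes acid ceramidase. Gla held 77.4 ± 7.40 and Glb1 68.9 ± 4.90. Gla is the alpha-galactosidase that degrades globotriaosylceramide, and Glb1 is the beta-galactosidase that acts on GM1 ganglioside. The enzymes for the major myelin lipids were low, with Galc (galactosylceramidase) at 38.6 ± 5.08, Smpd1 (acid sphingomyelinase) at 33.3 ± 2.28 and Arsa (arylsulfatase A, which removes sulfate from sulfatide) at 17.5 ± 1.95. Each of the 8 reached at least 5 scaled TPM in all 47 libraries, except for Arsa, which did so in 46. Among the 43 libraries the range between the lowest and the highest was smallest for Arsa (1.74-fold) and largest for Smpd1 (4.92-fold).

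**Figure D1:**
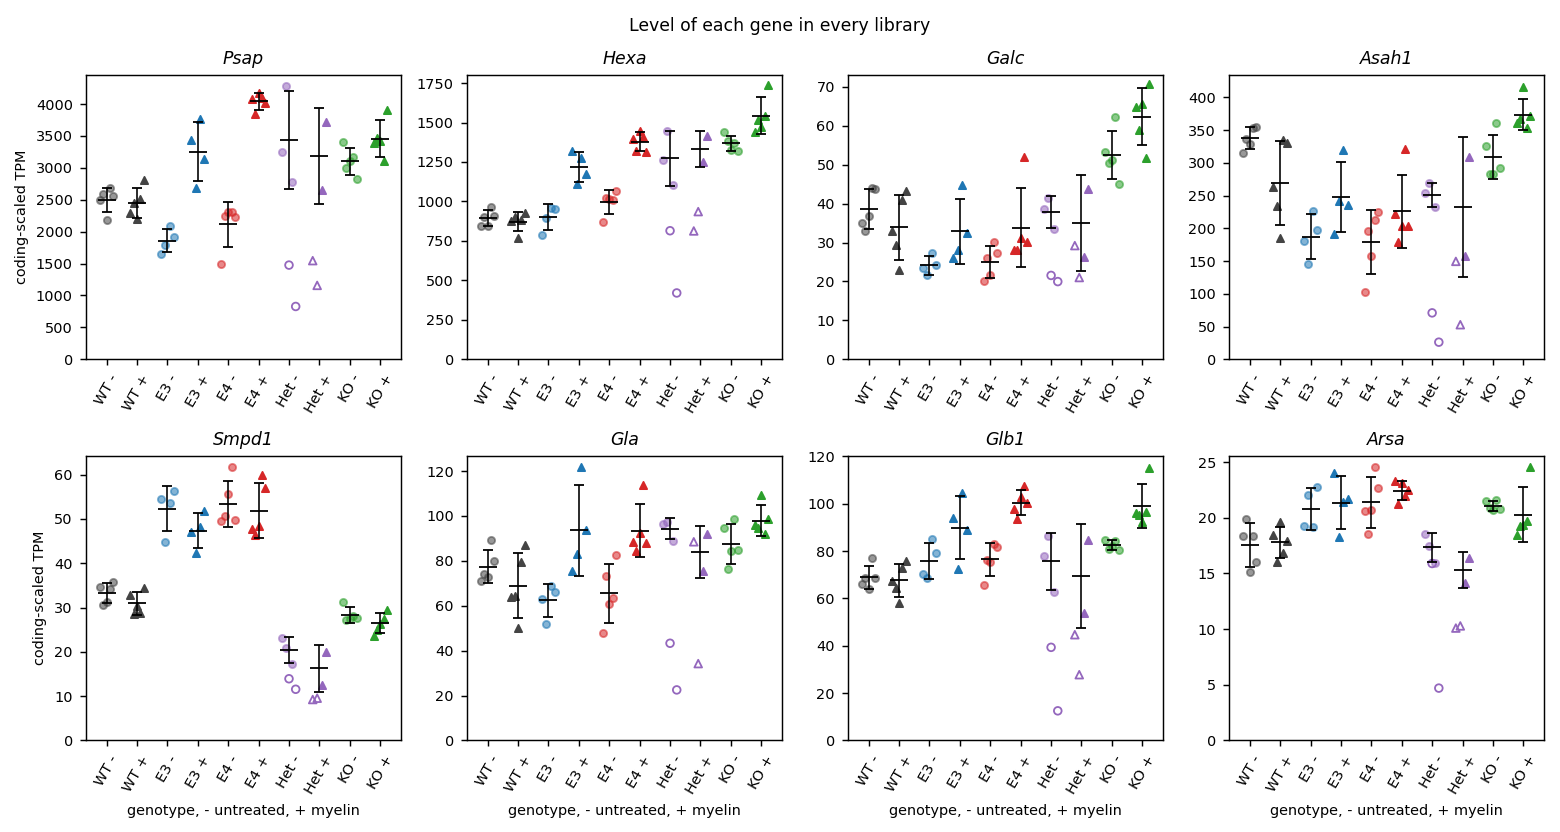
Coding-scaled TPM (vertical axes, linear from 0) of the 8 genes in each of the 47 libraries by genotype, untreated (circles, -) or after myelin (triangles, +); open symbols are the 4 Het libraries left out of the tests, and bars are the mean and SD of the other libraries. Psap after myelin lies between 3838 and 4178 in E4 and between 2686 and 3764 in E3, above the untreated libraries of each, while Smpd1 is highest in the E3 and E4 groups with or without myelin.

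The genes lie on separate loci of the mm10 genome, and only Hexa and Glb1 share a chromosome, chromosome 9. Psap (ENSMUSG00000004207.14) spans chr10:60277627-60302597 on the plus strand, Hexa (ENSMUSG00000025232.8) chr9:59539540-59565109 plus, Galc (ENSMUSG00000021003.10) chr12:98202294-98259459 minus and Asah1 (ENSMUSG00000031591.14) chr8:41340197-41374773 minus. Smpd1 (ENSMUSG00000037049.9) spans chr7:105554360-105558389 plus, Gla (ENSMUSG00000031266.6) chrX:134588149-134601125 minus, Glb1 (ENSMUSG00000045594.10) chr9:114401076-114474898 plus and Arsa (ENSMUSG00000022620.14) chr15:89472476-89477425 minus. Other annotated genes share 18.75% of the exonic bases of Arsa (C230037L18Rik, opposite strand), 12.776% of Hexa (Tmem202, opposite strand), 5.485% of Glb1 (Tmppe, same strand) and 2.688% of Galc (Gm47439, opposite strand). Whether strand was used in the quantification is not given in the sources used here, so reads from those shared bases cannot be told apart.

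The bases upstream of the genes were searched for the letters CACGTG, the E-box bound by TFEB and related regulators of lysosomal genes. RefSeq promoter windows (GRCm38.p6) were given for 7 of the 8 genes, with a pair of windows for Psap, and not for Asah1. Only the 250 bases upstream of each start were searched, and the bases after the start were left out. A window below means these 250 bases. CACGTG reads the same on both strands and was found in the windows of Gla, Glb1 and Arsa, against 6.021% of all 32851 windows. The longer TCACGTG, searched on both strands, was found in the same 3 and in 3.129% of all windows. The 4 matches are shown in 30 bases each, 5′ to 3′ on the strand of the gene, with CACGTG in capitals. They lie at chrX:134601215-134601244 and chrX:134601182-134601211 (minus, 227 and 194 bases upstream of Gla, inside an exon of the neighbour Hnrnph2), chr9:114401018-114401047 (plus, 48 bases upstream of Glb1) and chr15:89477426-89477455 (minus, 16 bases upstream of Arsa, inside the gene body of C230037L18Rik). These distances are counted from the gene starts of the RefSeq table, and that of Gla lies inside the Gla gene as annotated above.
Gla, distal match: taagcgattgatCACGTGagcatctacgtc
Gla, proximal match: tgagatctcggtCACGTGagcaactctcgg
Glb1: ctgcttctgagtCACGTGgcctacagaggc
Arsa: ccttcaactcagtgtCACGTGttgtctgct
A match is a description of these letters. Gla and Glb1 are among the genes that rose with myelin in E4, and Arsa is not. Psap and Hexa, which rose in both E4 and E3, had 0 matches in their windows, as had Galc and Smpd1, which were not called. A link between match and response was not tested.

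In E4 microglia 4 of the 8 genes rose with myelin (Psap, Hexa, Gla and Glb1), where 6.46% of tested genes were called higher. In E3 microglia 3 of the 8 rose (Psap, Hexa and Gla), where 2.82% were called higher. In WT 0 of the 8 were called, where 4.68% of genes were called in either direction. Psap moved most. Its untreated E4 libraries held 1489, 2240, 2314, 2302 and 2237 scaled TPM (replicates 1 to 5) and its E4 libraries with myelin 4076, 3838, 4178, 4098 and 4017. In E3 the untreated libraries held 1651, 1787, 2085 and 1918 and those with myelin 3435, 2686, 3764 and 3137. Neither genotype had any overlap between its groups. On the scale of log2(scaled TPM + 1) the change was 0.95 ± 0.11 in E4 (SE, adjusted p = 9.07e-08) and 0.80 ± 0.12 in E3 (adjusted p = 0.000107), or 1.93-fold and 1.74-fold. WT libraries held 2502, 2584, 2184, 2682 and 2551 untreated and 2293, 2454, 2202, 2506 and 2806 with myelin. These groups overlapped throughout, with a change of -0.03 ± 0.11 (adjusted p = 0.912).

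Hexa followed the same order at a smaller size. It rose by 0.47 ± 0.07 in E4 (SE, adjusted p = 7.51e-06), from 868, 1019, 1018, 1006 and 1068 to 1397, 1321, 1449, 1411 and 1314 scaled TPM. In E3 it rose by 0.44 ± 0.08 (adjusted p = 0.000694), from 785, 895, 961 and 955 to 1318, 1109, 1276 and 1173. Every library with myelin was above every untreated library of its genotype. The cofactor gene Gm2a, the GM2 activator, gave 0.04 in E4 (adjusted p = 0.81) and 0.13 in E3 (adjusted p = 0.46).

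The galactosidases rose less evenly. Gla went from 47.9, 73.3, 60.6, 63.5 and 82.4 to 88.3, 84.3, 92.3, 113.9 and 88.1 scaled TPM in E4, a rise of 0.52 ± 0.13 (SE, adjusted p = 0.0058). In E3 it went from 62.8, 52.1, 68.8 and 66.2 to 75.7, 83.0, 121.9 and 93.6, a rise of 0.56 ± 0.14 (adjusted p = 0.0176). The groups of neither genotype overlapped, although the highest untreated E4 library (82.4) was close to the lowest with myelin (84.3). Glb1 rose by 0.39 ± 0.10 in E4 (adjusted p = 0.00709), from 65.9, 76.2, 75.3, 83.1 and 81.8 to 97.6, 93.7, 102.8, 107.6 and 100.5. In E3 its change was 0.24 ± 0.11 (adjusted p = 0.176). The E3 call of Gla was lost without E3 untreated replicate 2 or without E3 myelin replicate 3, with an adjusted p of up to 0.147.

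Galc and Asah1 gave changes of 0.40 ± 0.16 and 0.36 ± 0.18 in E4 (SE, adjusted p = 0.0982 and 0.186) and of 0.40 ± 0.18 and 0.39 ± 0.20 in E3 (adjusted p = 0.162 and 0.216), none past the threshold. Galc held 28.1, 28.0, 31.1, 51.9 and 30.1 scaled TPM in E4 with myelin, where replicate 4 stood above the others, against 20.0, 25.9, 21.7, 30.2 and 27.2 untreated. Smpd1 (-0.04 ± 0.10 in E4 and -0.14 ± 0.11 in E3) and Arsa (0.07 ± 0.08 and 0.03 ± 0.09) were the genes with the smallest estimates in both genotypes. None of the 8 fell in E3 or E4. The median change over the 8 genes was 0.39 in E4 and 0.40 in E3, against medians of 0.00429 and 0.00434 over all tested genes.

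In WT, 0 of 8 passed in limma and 0 had an unadjusted p under 0.05, and the largest estimate, for Asah1, was -0.36 ± 0.18 (SE, adjusted p = 0.29). In KO, 0 of 8 passed and 2 had an unadjusted p under 0.05, with 1.95% of genes called. Glb1 in KO held 84.8, 80.7, 82.3, 84.5 and 80.4 untreated and 96.3, 95.3, 92.2, 96.5 and 115.2 with myelin, with no overlap, and its change was 0.26 ± 0.10 (adjusted p = 0.199). In Het, tested on 3 untreated and 2 myelin libraries, 0 of 8 passed and 1 had an unadjusted p under 0.05, with 0.193% of genes called. Without Het myelin replicate 4, which leaves 1 library assumed to vary like the other groups, Smpd1 was called in Het (adjusted p = 0.0151).

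**Figure D2:**
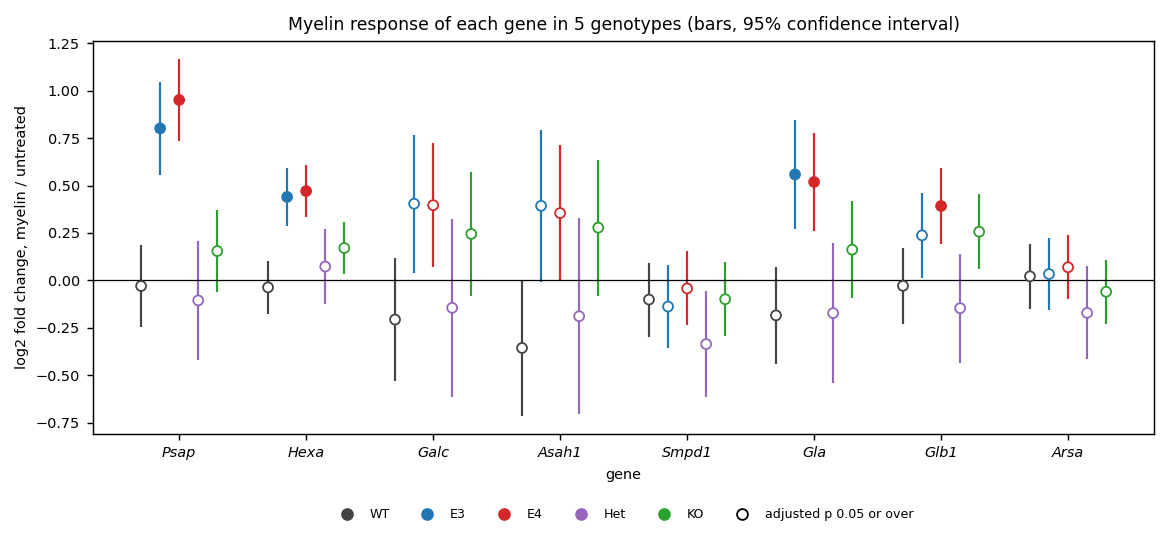
Change with myelin (log2 of scaled TPM + 1, myelin over untreated, vertical axis) of each gene in 5 genotypes, with 95% confidence intervals from limma; filled circles have an adjusted p under 0.05. Psap, Hexa and Gla are called in E3 and E4 and Glb1 in E4, and no circle is filled for WT, Het or KO.

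The responses themselves were compared between genotypes with interaction terms. Psap responded more than in WT by 0.83 ± 0.16 in E3 (SE, adjusted p = 0.00813) and by 0.98 ± 0.15 in E4 (adjusted p = 0.000132). Hexa responded more by 0.48 ± 0.10 (adjusted p = 0.0162) and 0.51 ± 0.10 (adjusted p = 0.00192), and Gla by 0.74 ± 0.19 (adjusted p = 0.0384) and 0.70 ± 0.18 (adjusted p = 0.023). These were the 3 of 8 called in each, against 0.972% of genes called higher in E3 minus WT and 1.88% in E4 minus WT. Glb1 gave 0.42 ± 0.14 in E4 minus WT (adjusted p = 0.0737). Both contrasts share the WT libraries. For KO minus WT, 0 of 8 were called with limma, 3 had an unadjusted p under 0.05 and 1.35% of genes were called.

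Of these differences, that of Gla was lost most often when a library was left out. In E3 minus WT the Gla call was lost when any of 9 libraries was left out (E3 untreated replicates 1 and 2, E3 myelin 3 and 4, WT untreated 2, 4 and 5, WT myelin 1 and 3), with an adjusted p of up to 0.149. In E4 minus WT it was lost without E4 untreated replicate 1, E4 myelin 4, WT untreated 4 or WT myelin 3 (up to 0.0634), and Glb1 was called without WT myelin replicate 5 (0.0462). The Hexa call in E3 minus WT was lost without E3 untreated replicate 1 or E3 myelin replicate 3 (up to 0.0662).

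Between E4 and E3 none of the 8 genes differed past the threshold, untreated or after myelin. Untreated, 0 of 8 were called in limma, 1 had an unadjusted p under 0.05, and 16.5% of tested genes were called. The 95% confidence interval of E4 over E3 was -0.06 to 0.40 for Psap, 0.00 to 0.30 for Hexa, -0.30 to 0.39 for Galc, -0.48 to 0.28 for Asah1, -0.18 to 0.24 for Smpd1, -0.22 to 0.33 for Gla, -0.20 to 0.22 for Glb1 and -0.14 to 0.22 for Arsa. After myelin, 0 of 8 were called, 2 had an unadjusted p under 0.05, and 11.4% of genes were called. Psap came closest, at 0.32 ± 0.11 (SE, adjusted p = 0.061, interval 0.09 to 0.55), and its lowest E4 library with myelin (3838) was above its highest E3 library (3764). It was called when E3 myelin replicate 3 was left out (adjusted p = 0.0268), when no Het library was in the fit (0.028), with TMM scaling (0.030) and with only these 2 groups in the fit (0.0399). Without E4 untreated replicate 1, Psap was also called in the untreated comparison (0.0421).

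The responses of E4 and E3 to myelin did not differ past the threshold for any of the 8 genes or for any tested gene in limma (0% called). Of the 8, 0 had an unadjusted p under 0.05, and of all tested genes 447 did. The weighted fit of all 47 libraries called 33 genes, none of them among the 8. The interval of the difference in response ran from -0.18 to 0.48 for Psap, from -0.18 to 0.24 for Hexa and from -0.43 to 0.35 for Gla.

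Of 13 tested genes for prosaposin partners and enzyme sorting, 4 were higher in E4 than in E3 untreated and 2 after myelin, and none was lower. Of all genes, 16.5% and 11.4% were called there in either direction, and the share after myelin is near that either-direction background. Called higher were 863 of the 10905 tested genes untreated and 684 after myelin. Grn encodes progranulin, which binds prosaposin on its way to the lysosome. It was higher in E4 by 0.26 ± 0.09 untreated (SE, adjusted p = 0.0445) and by 0.29 ± 0.09 after myelin (adjusted p = 0.032), and it rose with myelin by 0.44 ± 0.09 in E4 (adjusted p = 0.000626) and 0.41 ± 0.10 in E3 (adjusted p = 0.0105). Gpr37l1, a receptor proposed to bind secreted prosaposin, was higher in E4 by 1.28 ± 0.20 untreated (adjusted p = 1.12e-05) and 1.39 ± 0.20 after myelin (adjusted p = 5.54e-06). Gpr37l1 is expressed by astrocytes, and 8 of 10 astrocyte markers were higher in E4 than in E3 untreated and 7 of 10 after myelin. Their summed level was 986 to 1237 scaled TPM in untreated E3 and 1879 to 3464 in untreated E4, and 890 to 1075 and 1396 to 3047 after myelin. Its part in these differences was not tested. Sort1, which encodes the sorting receptor sortilin, gave -0.08 (adjusted p = 0.71) and -0.06 (adjusted p = 0.81).

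Other genes of lysosomal sphingolipid breakdown also rose with myelin. Of 13, 6 rose in E4 and 4 in E3, none fell, and the medians were 0.28 and 0.30. In E4 they included Ctsa (cathepsin A, which protects beta-galactosidase and neuraminidase; 0.58 ± 0.08, SE, adjusted p = 6.27e-06) and Smpdl3a (0.49 ± 0.11, adjusted p = 0.0039). In E3 they included Ctsa (0.44 ± 0.09, adjusted p = 0.00496) and Sumf1 (0.94 ± 0.27, adjusted p = 0.0367), which activates sulfatases such as arylsulfatase A. Sumf1 was also the 1 of 13 that rose in WT (0.87 ± 0.24, adjusted p = 0.0277), and in KO 0 of 13 were called in limma, with 1 at an unadjusted p under 0.05. Scarb2, which encodes a membrane protein of the lysosome, gave 0.36 in E4 (adjusted p = 0.026) and 0.38 in E3 (adjusted p = 0.057), and Neu1 0.22 (adjusted p = 0.16) and 0.24 (adjusted p = 0.19).

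Lysosomal enzymes for other substrates moved in the same direction. Of 26, 14 rose in E4, 11 in E3, 2 in WT and 0 in KO, where 8 had an unadjusted p under 0.05, and none fell in any of these. Naglu, which degrades heparan sulfate, rose by 1.10 ± 0.23 in E4 (SE, adjusted p = 0.00127) and 1.13 ± 0.26 in E3 (adjusted p = 0.00862). Tpp1, a lysosomal peptidase, rose by 0.69 ± 0.16 in E4 (adjusted p = 0.00397) and 0.64 ± 0.18 in E3 (adjusted p = 0.0331). Naglu also rose in WT by 1.11 ± 0.23 (adjusted p = 0.00322). Of 13 tested genes for prosaposin partners and enzyme sorting, 2 rose in each of E3, E4 and WT. In E3 and E4 these were Grn and Gnptab, which makes the mannose 6-phosphate tag, and in WT Nagpa and Gga2.

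Sphingolipid genes that act outside the lysosome were counted as well. Of 20 tested genes of sphingolipid synthesis, 6 rose in E4, 0 passed in E3 (4 had an unadjusted p under 0.05) and 1 rose in WT (St3gal5, 0.87 ± 0.19, SE, adjusted p = 0.0062). The 4 largest in E4 were Col4a3bp, the ceramide transporter (0.77 ± 0.21, SE, adjusted p = 0.0128), Sgms1, a sphingomyelin synthase (0.51 ± 0.16, adjusted p = 0.0272), Sptssa (0.40 ± 0.10, adjusted p = 0.00888) and Cers2 (0.38 ± 0.11, adjusted p = 0.0183). Of 10 tested genes of breakdown outside the lysosome, 1 passed in E4 (Sgpp1, 0.62 ± 0.19, adjusted p = 0.0277) and 0 in E3, WT and KO (2, 0 and 2 had an unadjusted p under 0.05). The counts of these lists were not tested against each other.

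Markers of the cells that the cultures could hold were measured beside these genes. Of 11 tested microglia markers, 1 rose and 3 fell in E4, and 1 rose and 1 fell in E3. Tmem119 fell by 0.68 ± 0.12 in E4 (SE, adjusted p = 0.00018) and by 0.54 ± 0.13 in E3 (adjusted p = 0.0163), and Aif1 and Cx3cr1 fell in E4. The summed level of the microglia markers was 7988 to 8836 scaled TPM in untreated E4, 7672 to 8807 in E4 with myelin, 5870 to 6788 in untreated E3 and 5822 to 7842 in E3 with myelin, with none at 0. No astrocyte marker of 10 was called in either response (1 in E4 and 2 in E3 had an unadjusted p under 0.05). Of 4 tested endothelial markers, Pecam1, Esam and Cdh5 fell in E4 and Pecam1 in E3 (-0.48 ± 0.15, adjusted p = 0.0479). All 3 were low. In E4 the mean scaled TPM went from 3.12 to 1.15 for Pecam1, 6.71 to 3.76 for Esam and 2.52 to 1.22 for Cdh5. In E3 Pecam1 went from 2.50 to 1.54. The 6 endothelial markers summed to 20.1 to 26.6 scaled TPM in untreated E4 and 17.2 to 22.2 with myelin, and to 40.4 to 46.0 in untreated E3 and 27.4 to 34.0 with myelin, with at most 1 at 0. Fibroblast and pericyte markers summed to 686 to 1018 in untreated E4 and 694 to 869 with myelin. In E3 they summed to 1850 to 2341 untreated and 1259 to 1672 with myelin, with no overlap, although none of the 6 tested was called in either response (0 had an unadjusted p under 0.05). The macrophage marker Pf4 (-0.49 ± 0.11, adjusted p = 0.00189) and the neuron marker Stmn2 (-0.43 ± 0.14, adjusted p = 0.0407) fell in E4. Mbp, a main protein of myelin, rose by 0.60 ± 0.11 in E3 (adjusted p = 0.00163). In each case no other tested marker of the same list was called in that response. Pf4 also fell in WT (-0.64 ± 0.11, adjusted p = 0.000878), as did Mrc1 (-0.40 ± 0.12, adjusted p = 0.0479). The astrocyte marker Sox9 rose there, at low mean levels (1.15 to 2.75 scaled TPM). In KO the astrocyte markers Clu (21.1 to 10.9) and Slc1a3 (6.17 to 3.22) and the precursor marker Olig1 (6.33 to 3.20) fell. The part of these cells in the responses was not tested.

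KO microglia held more of most of the 8 transcripts than WT. Untreated, 5 of 8 were higher, where 26.3% of genes were, and 1 was lower, where 29.4% were. After myelin 6 of 8 were higher, where 28.8% of genes were, and 1 was lower, where 25.1% were. Hexa showed it most clearly, with 1443, 1382, 1325, 1370 and 1322 scaled TPM in untreated KO against 847, 901, 841, 968 and 907 in untreated WT, a difference of 0.62 ± 0.07 (SE, adjusted p = 5.8e-10). After myelin the difference was 0.82 ± 0.07 (adjusted p = 4.84e-13). Galc held 53.2, 50.5, 51.3, 62.3 and 45.1 in untreated KO and 35.1, 33.0, 36.8, 44.1 and 43.7 in WT, and after myelin 64.9, 59.0, 65.6, 51.7 and 70.6 against 33.0, 29.4, 22.9, 40.9 and 43.3. The ranges of the groups did not overlap in either state. The Galc difference was 0.44 ± 0.16 untreated (adjusted p = 0.0201) and 0.89 ± 0.16 after myelin (adjusted p = 1.28e-05), and the KO groups had the highest Galc means of all groups.

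Untreated, Psap (0.31 ± 0.11, SE, adjusted p = 0.0131), Glb1 (0.26 ± 0.10, adjusted p = 0.0232) and Arsa (0.26 ± 0.08, adjusted p = 0.00881) were also higher in KO. After myelin Psap (0.50 ± 0.11, adjusted p = 0.000165), Asah1 (0.50 ± 0.18, adjusted p = 0.0156), Gla (0.52 ± 0.13, adjusted p = 0.00062) and Glb1 (0.55 ± 0.10, adjusted p = 1.15e-05) were higher. Smpd1 was the gene called lower, by -0.22 ± 0.10 in both states (adjusted p = 0.0463 and 0.0497). The median over the 8 genes was 0.26 untreated and 0.51 after myelin, against -0.0245 and 0.0465 over all genes. Of the 13 other genes of lysosomal sphingolipid breakdown, 11 were higher in KO untreated and 13 after myelin, and none lower.

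Each Smpd1 call in KO was lost when any of 7 of the 10 libraries was left out, with an adjusted p of up to 0.104 untreated (KO replicates 2 to 5, WT 1, 4 and 5) and 0.128 after myelin (KO 1 to 4, WT 1, 3 and 5). Untreated, Galc was lost without KO replicate 4 or WT replicate 2 (up to 0.0623) and Glb1 without WT replicate 3 (0.0572). After myelin, Asah1 was lost (0.0807) and Arsa called (0.0463) without WT replicate 3. All 6 tested fibroblast and pericyte markers were lower in KO than in WT in both states, with a summed level over 8 markers of 114 to 769 scaled TPM in KO and 1882 to 2796 in WT, at most 1 of them at 0 in any of these libraries. Astrocyte markers summed to 56.2 to 120.5 in KO and 123 to 161 in WT, with none at 0. Microglia markers summed to more in KO than in WT without overlap, 8373 to 9059 against 6795 to 7435 untreated and 9660 to 10686 against 5856 to 7253 after myelin, with none at 0. Of the 11 tested, 4 were higher and 3 lower untreated, and 7 higher and 1 lower after myelin. Endothelial markers summed to 12.5 to 20.4 in KO and 36.8 to 67.4 in WT, with at most 1 at 0, and in both states 3 of the 4 tested were lower in KO and 1 higher. Border macrophage and monocyte markers summed to 1163 to 1381 in KO with myelin and 661 to 1003 in WT with myelin, and overlapped untreated. The part of these cells in the differences was not tested, and in bulk RNA fewer cells of a type and less RNA per cell cannot be told apart.

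Untreated E3 microglia had 3 of the 8 genes lower than WT and 2 higher, where 25.1% and 28.7% of genes were, and untreated E4 microglia 3 lower and 3 higher, where 30.8% and 32.4% were. The number of higher members is near those background shares. After myelin 6 of the 8 were higher and none lower in each, where 20.5% of genes were higher in E3 and 29.2% in E4. Smpd1 stood apart most clearly. Smpd1 held 54.6, 44.9, 53.5 and 56.2 scaled TPM in untreated E3 and 49.5, 50.6, 55.6, 61.6 and 49.7 in untreated E4. Untreated WT held 34.7, 30.5, 31.2, 34.1 and 35.7. The lowest E3 or E4 library was therefore above the highest WT library, and the difference was 0.64 ± 0.10 in E3 (SE, adjusted p = 3.08e-06) and 0.66 ± 0.10 in E4 (adjusted p = 2.41e-07). After myelin it was 0.60 ± 0.10 (adjusted p = 1.28e-05) and 0.72 ± 0.10 (adjusted p = 5.22e-08), again without overlap. The 3 untreated Het libraries in the fit held 23.2, 20.8 and 17.3 and the 2 with myelin 12.5 and 20.1, so that the order of groups for Smpd1 ran from E4 and E3 through WT and KO to Het.

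Untreated, Asah1 and Galc stood the other way. Asah1 held 180, 145, 227 and 197 scaled TPM in E3 and 103, 197, 158, 213 and 224 in E4, against 315, 336, 328, 353 and 355 in WT. No library overlapped, and the difference was -0.86 ± 0.19 in E3 (SE, adjusted p = 0.000225) and -0.96 ± 0.18 in E4 (adjusted p = 1.43e-05). Galc was lower by -0.65 ± 0.17 (adjusted p = 0.00166) and -0.61 ± 0.16 (adjusted p = 0.00129), and Psap by -0.43 ± 0.11 (adjusted p = 0.00193) and -0.26 ± 0.11 (adjusted p = 0.0372). Arsa was higher by 0.24 ± 0.09 (adjusted p = 0.0243) and 0.27 ± 0.08 (adjusted p = 0.00497), and Hexa in E4 by 0.16 ± 0.07 (adjusted p = 0.0452).

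After myelin Psap stood above WT in both. It was higher than WT by 0.40 ± 0.11 in E3 (SE, adjusted p = 0.00582) and 0.73 ± 0.11 in E4 (adjusted p = 4.68e-07), and Hexa by 0.48 ± 0.07 (adjusted p = 1.25e-06) and 0.66 ± 0.07 (adjusted p = 1.38e-10). Gla (0.44 ± 0.13, adjusted p = 0.011, and 0.45 ± 0.13, adjusted p = 0.00321), Glb1 (0.40 ± 0.10, adjusted p = 0.00276, and 0.57 ± 0.10, adjusted p = 7.06e-06) and Arsa (0.25 ± 0.09, adjusted p = 0.0296, and 0.32 ± 0.08, adjusted p = 0.00156) were the others besides Smpd1. Galc (-0.04 ± 0.17 and -0.01 ± 0.16) and Asah1 (-0.11 ± 0.19 and -0.25 ± 0.18) were not called. Of the genes called in E3 against WT after myelin 64.1% were higher, and 50.4% with TMM scaling. E3 and E4 are compared with the same WT libraries.

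**Figure D3:**
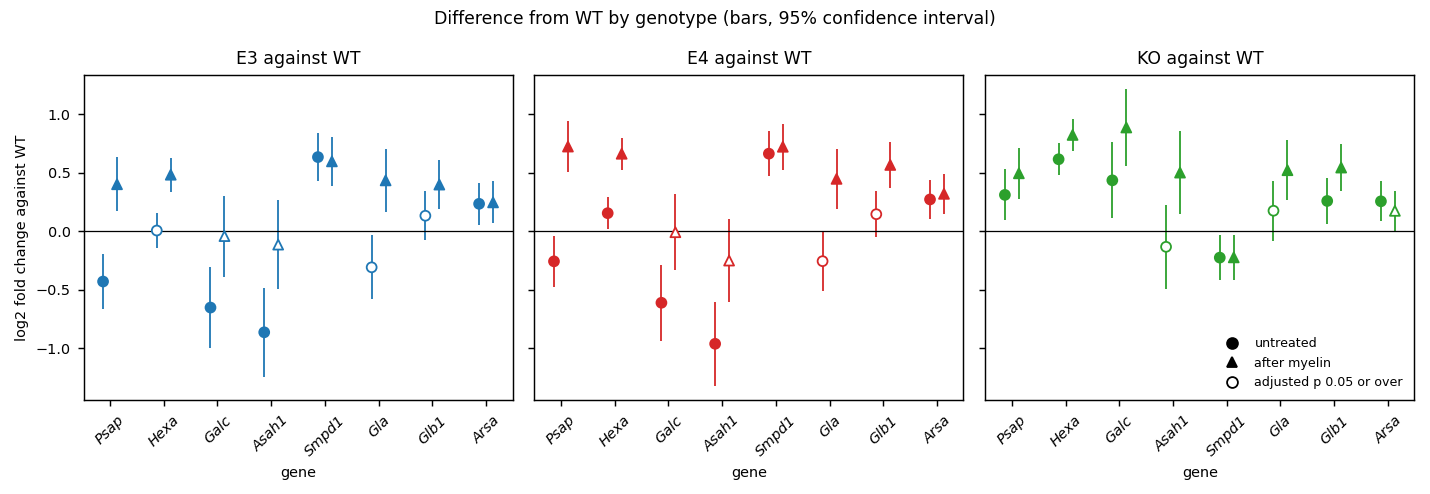
Difference from WT (log2 of scaled TPM + 1, vertical axis) in E3, E4 and KO microglia, untreated (circles) and after myelin (triangles), with 95% confidence intervals from limma; filled symbols have an adjusted p under 0.05. Smpd1 is above 0 in E3 and E4 and below 0 in KO, and Asah1 and Galc are below 0 in untreated E3 and E4 and above 0 or uncalled in KO.

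Astrocyte markers moved with these contrasts, 9 of 10 being higher in E3 and in E4 than in WT in both states. Their summed level was 123 to 161 scaled TPM in WT, 890 to 1237 in E3 and 1396 to 3464 in E4, with none at 0. Of the 6 tested fibroblast and pericyte markers, 6 were lower in E4 than in WT in both states, and 2 (untreated) and 5 (after myelin) were lower in E3. They summed to 1882 to 2796 scaled TPM in WT, 1259 to 2341 in E3 and 686 to 1018 in E4. In KO the astrocyte markers summed to less than in any WT library. The part of these cells in the level of Smpd1 or of the other genes was not tested.

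Some of these calls rested on few libraries. In E4 against WT untreated the Hexa call was lost without any of 8 libraries (E4 replicates 2 to 5, WT 1, 2, 3 and 5, adjusted p up to 0.117) and the Psap call without any of 5 (E4 1, WT 1, 2, 4 and 5, up to 0.247), while Gla was called as lower without E4 replicate 5 (0.0216). In E3 against WT untreated Arsa was lost without E3 replicate 2 or 4 or WT 3 or 5 (up to 0.0938), and Gla was called as lower without E3 3 or WT 1 (0.0409 at the lowest). After myelin Gla was lost without E3 replicate 3 or WT 3 (up to 0.0927) and Arsa without E3 1, 3 or 4 or WT 2 or 4 (up to 0.135).

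The level of most of the 8 genes moved with the coding share of the library, also within groups. Over the 38 libraries of the 8 groups other than Het, after each group's mean was subtracted, the Pearson correlation of the log2 level with the coding share was 0.83 for Gla, 0.80 for Galc, 0.76 for Asah1, 0.71 for Glb1, 0.67 for Psap, 0.52 for Smpd1, 0.49 for Hexa and 0.04 for Arsa. Over all tested genes the median was 0.23, and the central 90% lay between -0.51 and 0.74. Gla, Galc and Asah1 thus sat above that range. These correlations describe libraries that share amplification and processing, and carry no test.

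With the coding share added to the fit as a covariate, an alternative added after the data had been seen, Psap and Hexa kept their calls in the E3 and E4 responses. In E4, Psap rose by 0.73 (adjusted p = 5.83e-07) and Hexa by 0.37 (adjusted p = 0.000216), while Gla (0.21, adjusted p = 0.137) and Glb1 (0.19, adjusted p = 0.157) were no longer called. In E3 Gla kept its call (0.46, adjusted p = 0.000898). The lower untreated levels of Galc and Asah1 against WT were not called with it, at -0.08 and -0.27 in E3 (adjusted p = 0.679 and 0.184) and 0.05 and -0.27 in E4 (adjusted p = 0.773 and 0.16). Those of Psap were not called either (-0.10 in E3, adjusted p = 0.488, and 0.13 in E4, adjusted p = 0.344). The higher Smpd1 against WT kept its call, at 0.86 in E3 (adjusted p = 2.32e-08) and 0.93 in E4 (adjusted p = 3.66e-09) untreated. Glb1 was called higher than WT in untreated E3 (0.44, adjusted p = 0.000272) and E4 (0.50, adjusted p = 3.42e-05), and Gla in untreated E4 (0.28, adjusted p = 0.0217). In KO against WT, Hexa, Galc, Psap and Glb1 kept their calls in both states, Asah1 lost its call after myelin (0.24, adjusted p = 0.104) and Smpd1 untreated (-0.17, adjusted p = 0.0789), and Gla was called untreated (0.29, adjusted p = 0.00144). The Psap difference in response from WT kept its call in E3 (0.63, adjusted p = 0.0113) and E4 (0.62, adjusted p = 0.0127), and that of Hexa kept its call in E3 (0.38, adjusted p = 0.0468) but not in E4 (0.34, adjusted p = 0.0906). Gla lost it in both (0.46, adjusted p = 0.0725, and 0.20, adjusted p = 0.545). Since the share differs between the groups, its part and that of genotype cannot be told apart in the untreated contrasts with WT. With myelin the mean share went from 12.1% to 18.6% in E4 and from 23.2% to 19.2% in WT. The parts of the share and of myelin cannot be told apart in the E4 response or in its difference from the WT response.

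**Figure D4:**
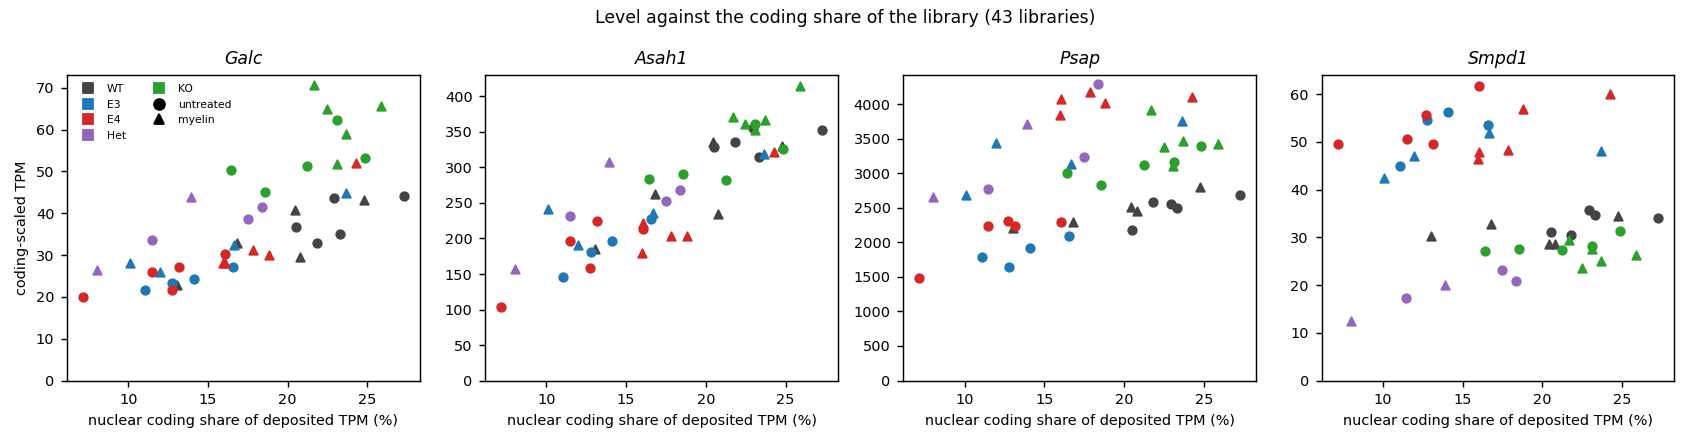
Coding-scaled TPM of Galc, Asah1, Psap and Smpd1 (vertical axes, linear from 0) against the nuclear coding share of the deposited TPM in percent (horizontal axes) in the 43 libraries in the fit; color is genotype, circles are untreated and triangles are after myelin. Asah1 rises along the share across genotypes, Psap in E4 and E3 after myelin lies above the untreated libraries of the same genotype at like shares, and Smpd1 in E3 and E4 lies above all WT, KO and Het libraries.

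The fit of all 47 libraries without weights, which keeps the 4 Het libraries of low coding share, gave far fewer calls. There Psap alone was called in the E4 response (adjusted p = 0.0244), and none of the 8 in the E3 response or in either interaction with WT. Against WT, Smpd1 kept its call in E3 and E4 in both states, Hexa in KO in both states and in E4 after myelin, Galc in KO after myelin and in E3 and E4 untreated, Asah1 in untreated E4 and Psap in E4 after myelin.

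Some pairs of the 8 genes varied together more than others. Within groups, over the same 38 libraries, the highest correlations of log2 levels were between Asah1 and Gla (0.91), Galc and Asah1 (0.86), Galc and Gla (0.85), Psap and Glb1 (0.83), Hexa and Glb1 (0.82) and Psap and Hexa (0.81). Glb1 also correlated with Galc (0.72), Gla (0.71) and Asah1 (0.66), so these pairs do not form separate sets. The lowest values were those of Arsa with Galc (-0.01), Asah1 (-0.06) and Gla (-0.08). Over the 8 group means Smpd1 ran against Asah1 (-0.90) and Galc (-0.86), and Psap ran with Gla (0.95). Libraries share the coding share that moves with most of these genes, so these values are descriptions.

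The group means of Psap were ordered from E4 with myelin (4042 ± 127) through KO with myelin (3457 ± 291), E3 with myelin (3255 ± 458), untreated KO (3103 ± 213), untreated WT (2501 ± 189), WT with myelin (2452 ± 232) and untreated E4 (2117 ± 353) to untreated E3 (1860 ± 185, SD, n = 4 to 5). In that order the 1 pair of neighbours without overlap was untreated KO and untreated WT. The 5 genes whose means over the same 8 groups were most like those of Psap were Tmem104 (r = 0.986), Gpnmb (0.980), Cpt1a (0.967), Ttyh2 (0.963) and Pld3 (0.959). For Galc, whose order put both KO groups first and untreated E4 and E3 last, they were Btk (0.995), Nampt (0.994), Slc26a11 (0.992), Zbtb14 (0.992) and S1pr2 (0.992). These genes were picked as the highest of 10905 over 8 means, so values this high can come from the picking, and they carry no test. Over the same means the coding share correlated with Galc at 0.86 and with Psap at 0.52. Het libraries that entered the fit held 3242, 4290 and 2780 scaled TPM of Psap untreated and 2654 and 3720 with myelin.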

How the data were processed

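Per the labels' protocols, polyA RNA was prepared with a SMARTer low-input kit. The authors deposited TPM (length-adjusted transcript abundance, all genes of a library summing to 1000000) for 53697 genes and 47 libraries. Salmon 0.13.1, limma 3.40.6 and mm10 are named in the submitters' processing notes, with no role given. The read depth cannot be had from TPM, so no interval for counting error is printed. Columns were rescaled to nuclear protein-coding genes. The 10905 coding or lincRNA genes that reached 5 scaled TPM in 4 or more libraries were tested with limma 3.58.1 (R 4.3.3, and the package data.table, version 1.17.8) on log2(scaled TPM + 1), which understates changes of low genes. The fit had 1 mean per group, a trend in the empirical Bayes step and no weights. P-values are two-sided, adjusted by Benjamini-Hochberg over all tested genes, and called under 0.05. Levels are mean ± SD and differences ± SE.

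The fit was tested on simulated data first. Replicates correlated between 0.795 and 0.990, and none were identical. Members were taken by gene name, a rule that uses no values, but that set, the gene lists and the fits were chosen with earlier results of these data known. Named genes are the 8 members, up to 4 called genes of largest change per list in each myelin response and E4 against E3 comparison, set partners (such as Grn, Sort1, Gm2a, Neu1, Scarb2), Apoe, and the 5 genes most like Psap and Galc. Some genes of the lists are not reported here by name. Positions are from GENCODE vM21, which held 98.341% of identifiers. Alternatives changed the scaling (TMM, trimming 30% of ratios and 5% of levels), weights, libraries, pseudocount, filter and replicate block.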

Additional observations from a re-analysis of the deposited data

Results flagged for a closer look

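Of 80 groups of values (8 genes in 10 groups), 7 had a highest or lowest library that stood apart from the rest by Dixon's criterion, where chance gives about 1 in 20. Psap was low in untreated E4 replicate 1 (1489 scaled TPM), the E4 library of lowest coding share (7.16%). Galc (51.9) and Gla (113.9) were both high in E4 myelin replicate 4, the E4 library of highest coding share (24.3%). Glb1 (115.2) and Arsa (24.6) were both high in KO myelin replicate 5. Smpd1 was high in untreated KO replicate 1 (31.3), and Arsa was low in untreated Het replicate 5 (4.70), the library of lowest coding share (0.468%). The part of the coding share in these values was not tested.

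The response to myelin differed from that of WT, by an interaction term in limma, for Psap by 0.83 in E3 and 0.98 in E4, for Hexa by 0.48 and 0.51, and for Gla by 0.74 and 0.70 on the log2 scale.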

How the results depend on the processing

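The number of the 8 genes called changed as follows. In the unweighted fit of all 47 libraries it was 0 in the E3 response, 1 in the E4 response, 1 and 2 in KO against WT (untreated and after myelin), 2 and 1 in E3 against WT, 3 and 3 in E4 against WT, and 0 in both E3 minus WT and E4 minus WT. With the coding share as a covariate it was 2 in the E4 response, 1 in E4 against E3 untreated (Hexa), 3 in E3 against WT untreated and 1 in E4 minus WT. In E4 against WT untreated that covariate turned Psap to 0.13, Galc to 0.053 and Gla to 0.28. E4 against E3 after myelin had 1 with TMM, with no Het library and with only its own groups, and 2 with weights on all 47 libraries, which gave 2 in the Het response. The replicate block is described below. The other settings left each count of members within 1.5 times, and pseudocounts of 0.1 and 5 changed no call. Without 1 library at a time the counts ranged over 0 to 0 in the WT response, 2 to 3 in E3, 4 to 4 in E4, 0 to 1 in Het and 0 to 0 in KO, over 0 to 1 in E4 against E3 in either state, over 4 to 6 (untreated) and 6 to 7 (after myelin) in KO against WT, 4 to 6 and 4 to 6 in E3 against WT, 4 to 6 and 6 to 6 in E4 against WT, and over 0 to 0, 1 to 3, 2 to 4 and 0 to 0 in E4 minus E3, E3 minus WT, E4 minus WT and KO minus WT. The cause of these changes was not tested.

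Same-numbered untreated and myelin libraries of a genotype mostly did not deviate together (20 pairs, r from -0.20 to 0.46, 4 over 0.1, 2 libraries closest to their own number). The largest r was that of E4 replicate 4. The main fit did not pair libraries by number. These values cannot show whether same-numbered libraries share an animal or culture. A replicate block left each count of members as it was, and a replicate block within genotype gave 5 in the E4 response, 1 in the KO response (Glb1), 5 in E3 minus WT and 6 in E4 minus WT. For all tested genes, the counts were 581 in the E3 response (11 in the unweighted fit of all libraries, 1601 with weights), 1360 in the E4 response (297 and 2682), 510 in the WT response (216 and 958), 213 in KO (11 and 514), 161 in E3 minus WT (0 and 918), 376 in E4 minus WT (7 and 946) and 147 in KO minus WT (1 and 989). E4 against E3 had 1801 untreated (683 and 2827) and 1244 after myelin (465 and 2743). Without 1 library at a time the counts ranged from 135 (without untreated WT 4) to 879 (without myelin WT 2) in the WT response, 124 (without myelin E3 3) to 792 in E3, 824 (without untreated E4 1) to 1627 in E4, 114 (without myelin KO 5) to 268 in KO, 0 to 293 in Het, 796 (without myelin E3 2) to 1360 in E4 against E3 after myelin, 15 (without myelin E3 3) to 606 (without myelin WT 5) in E3 minus WT, 168 (without untreated E4 1) to 648 (without myelin WT 5) in E4 minus WT and 15 (without untreated WT 4) to 593 (without myelin WT 2) in KO minus WT, and the WT response had 0 with only its own groups in the fit. The background shares move with them. TMM moved the share of higher calls from 65.8% (106 of 161) to 76.2% (291 of 382) in E3 minus WT. In Het it moved from 14.3% (3 of 21) to 25.0% (2 of 8), where the number of higher calls did not rise. Depth is unknown in TPM, so counting error could not be separated from the spread of libraries.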
